A study of Homo sapiens with 12 samples.

Results

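MKI67, TOP2A and the 8 condensin subunit genes, 10 genes in all, were followed in A375 cells, an established human melanoma line with an activating BRAF mutation, after inhibition of CDC7, of EZH2 or of both. The 10 genes were selected by symbol from a count table of 26475 genes, and all 10 passed the filter on low counts that left 15443 genes for testing. The set was chosen because MKI67 was lower with XL413 and with the combination in these same libraries, so every difference of a member between XL413 and DMSO, or between the combination and DMSO, is given as a description with no test. Tests of the members are given for the comparisons that choice did not use, which still share libraries with the ones it did.

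Cells were kept for 24 h in DMSO, the solvent that served as the control, in 1 µM XL413, in 1 µM GSK343, or in both agents together at these doses. CDC7, the target of XL413, is the kinase that activates licensed replication origins, and GSK343 inhibits EZH2, the catalytic subunit of the Polycomb complex that methylates histone H3. Each of the 4 groups had 3 libraries called biological replicates in the labels, made from poly-A RNA with a strand-marking protocol. One cell line, one dose of each compound and one time limit what the groups can stand for, and where replicates were not separate cultures the p-values measure only the spread between these samples.

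MKI67 encodes Ki-67, the proliferation antigen that coats mitotic chromosomes and keeps them apart. TOP2A encodes topoisomerase II alpha, which passes one DNA duplex through another and untangles sister chromatids. Condensins are ring complexes that fold chromatin into loops as cells enter mitosis. SMC2 and SMC4 are the ATPase pair of both condensins. Condensin I adds NCAPD2, NCAPG and NCAPH and meets chromosomes after the nuclear envelope breaks down, while condensin II adds NCAPD3, NCAPG2 and NCAPH2 and is nuclear throughout interphase. Transcripts of such mitotic genes accumulate towards G2 and M phase. Many of their promoters carry a CHR element, bound by the MuvB core with either the DREAM repressors or MYBL2 and FOXM1, and CCAAT boxes bound by NF-Y.

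The promoters of MKI67 and TOP2A are shown because these transcripts had opposite differences in XL413 cells, described further on. Both sequences are from RefSeq on GRCh38.p14, read 5′ to 3′ on the gene's strand and ending before any annotated transcript start. Capitals mark the CHR core TTTGAA and the CCAAT-box core CCAAT on either strand, so that they also appear as TTCAAA and ATTGG. The MKI67 stretch is chr10:128126424-128126673 and the TOP2A stretch is chr17:40417951-40418146, both on the minus strand.
MKI67: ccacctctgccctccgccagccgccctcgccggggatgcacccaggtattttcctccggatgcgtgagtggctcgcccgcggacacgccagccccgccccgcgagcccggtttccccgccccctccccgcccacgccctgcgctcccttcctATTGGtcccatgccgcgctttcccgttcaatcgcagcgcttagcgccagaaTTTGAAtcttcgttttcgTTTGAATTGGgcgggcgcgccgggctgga
TOP2A: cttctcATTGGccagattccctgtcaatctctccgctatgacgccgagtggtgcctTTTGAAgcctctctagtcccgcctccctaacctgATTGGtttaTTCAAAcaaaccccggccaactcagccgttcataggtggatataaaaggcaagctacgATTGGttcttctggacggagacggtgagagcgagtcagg
The MKI67 window, counted over 250 bases before and 50 bases after the RefSeq start, held 2 CHR cores, whose first bases lie at -47 and -29, and 2 CCAAT cores at -98 and -24. Its CHR core at -29 and its CCAAT core at -24 share a base. The TOP2A window held 2 CHR cores, at -194 and -151, and 4 CCAAT cores, of which 3 lie in the printed stretch. Both windows thus carried both motifs. In GENCODE 29, another gene annotation, the starts of MKI67 and TOP2A differ from the RefSeq starts, so these distances depend on the annotation.

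RefSeq windows were at hand for 9 of the 10 genes, NCAPH2 being the other, and SMC2, SMC4 and NCAPD3 had a window for each of 2 starts. TTTGAA was found on either strand in 8 of these 12 windows (66.7%), against 15.2% of 35116 windows of the same length over all genes. CCAAT was found in 5 of the 12 (41.7%), those of MKI67, TOP2A, NCAPD2, NCAPH and 1 of NCAPD3, against 34.6% of all windows. NCAPD2, a condensin I subunit, resembled TOP2A in its motifs, with 4 CCAAT cores and 1 CHR core at -145. NCAPG had 1 CHR core at -35 and no CCAAT core, and NCAPH had 1 CCAAT core at -112 and no CHR core. These matches describe letters in a window and do not show that a factor binds there.

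**Figure D1:**
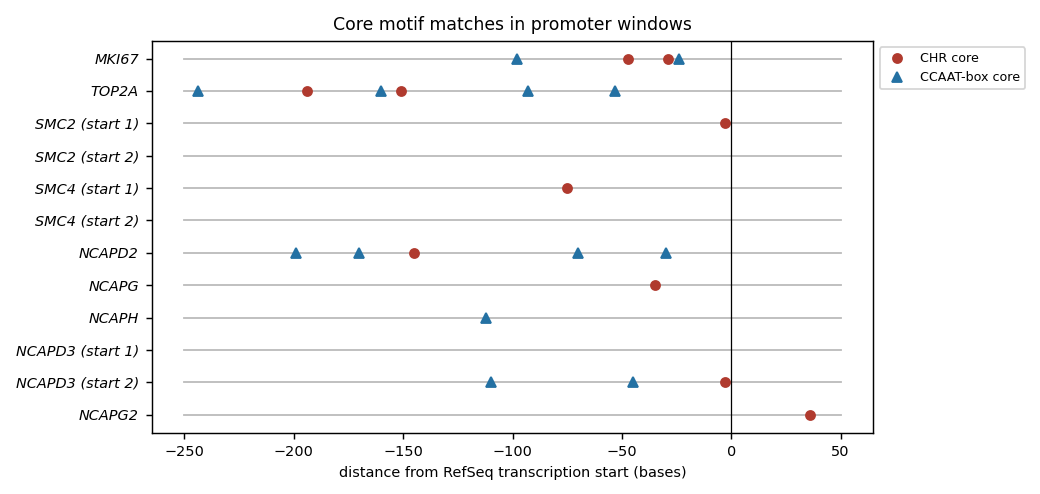
Positions of CHR cores (red circles) and CCAAT-box cores (blue triangles) in the 12 RefSeq windows of 9 genes, with distance from the RefSeq start in bases on the horizontal axis. The CHR cores of MKI67 at -47 and -29 and of NCAPG at -35 lie within 50 bases before the RefSeq start. Those of TOP2A at -194 and -151 lie farther from it. GENCODE 29 starts of these genes differ, and by them the NCAPG core lies inside the gene, so the distances depend on the annotation.

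Library totals ran from 31553205 to 39079931 expected counts. Replicate 2 of the combination stood apart. Over 6152 genes with a mean of at least 5 log2 CPM, its log2 levels differed from the mean of the other 2 libraries of its group with an SD of 0.236, while the SDs of the other 11 ran from 0.0518 to 0.139. The deviation followed transcript length, with a Spearman rho of -0.751 across 6121 genes. Among the 10 members, rho was -0.770, from +0.17 log2 for NCAPH2, with the shortest transcript, 2077 nt, to -0.94 log2 for MKI67, with the longest, 12678 nt. These rho values are across genes of 1 library, which are not independent, and the part of this length relation in each result was not tested. Results that rest on this library are therefore given with and without it. The melanoma marker SOX10 was at 296 to 370 CPM and MITF at 36.6 to 50.5 CPM, while the pigmentation genes PMEL, MLANA, TYR and DCT stayed at or below 1.12 CPM. Of the markers of other cells, the 3 epithelial, 3 leukocyte and 3 endothelial genes were each below 1 CPM, and the 3 fibroblast genes summed to 114 to 224 CPM.

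Each XL413 library had less MKI67 than each DMSO library. Levels are CPM, read counts relative to library size, here scaled by TMM (edgeR's trimmed mean of M-values). The DMSO libraries had 531, 556 and 555 CPM of MKI67. The XL413 libraries had 425, 395 and 402 CPM. The GSK343 libraries had 481, 492 and 539 CPM, the highest of which lies inside the DMSO range. The combination libraries had 379, 200.5 and 392 CPM, all 3 below every XL413 library, with replicate 2 far below the other 2. In group means the order was DMSO, 547 ± 14.5 CPM (SD, n = 3), GSK343, 504 ± 30.9, XL413, 407 ± 15.7, and the combination, 324 ± 107, or 386 ± 8.82 CPM over replicates 1 and 3. DMSO and GSK343 overlapped. In bulk RNA, fewer cells with MKI67 transcripts and less MKI67 RNA per cell cannot be told apart.

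The fitted difference of MKI67 between XL413 and DMSO was -0.43 ± 0.17 log2 (SE), 25.6% lower. Between the combination and DMSO it was -0.76 ± 0.17 log2, or 40.8% lower. Leaving out replicate 2 of the combination gave -0.42 ± 0.040 and -0.50 ± 0.046 log2, or 25.2% and 29.3% lower. That library is in neither group of the XL413 comparison, so leaving it out could move the XL413 value only indirectly, as through scaling. The combination value came closer to 0, and the SE of both became smaller. Corrected for GC content and for transcript length, the values were -0.38 ± 0.096 log2 for XL413 and -0.64 ± 0.096 for the combination. Among 255 genes with a transcript of at least 10 kb and a mean of at least 5 log2 CPM, MKI67 had the lowest XL413 difference, beside a median of -0.06 log2 for that class. Across 6121 genes the XL413 difference had a Spearman rho of -0.316 with transcript length, and among the 10 members rho was 0.0667. Genes are not independent, and the part of length in the MKI67 value was not tested beyond the correction above. Across all 15443 genes the MKI67 value ranked as the 334th lowest. MKI67 was chosen for this fall, so nothing is read from either rank.

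TOP2A was higher in every XL413 library than in any DMSO library. Its levels were 552, 549.5 and 559.8 CPM in DMSO and 701, 666 and 708 CPM in XL413. In GSK343 they were 522, 511 and 558 CPM, and in the combination 659, 537 and 682 CPM. The combination libraries 1 and 3 were above every DMSO and GSK343 library, whereas replicate 2 was below every DMSO library and within the GSK343 range. The fitted XL413 difference was +0.32 ± 0.070 log2, 24.9% higher, and that of the combination against DMSO was +0.18 ± 0.070 log2. With that library left out they were +0.33 ± 0.034 and +0.28 ± 0.038 log2.

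**Figure D2:**
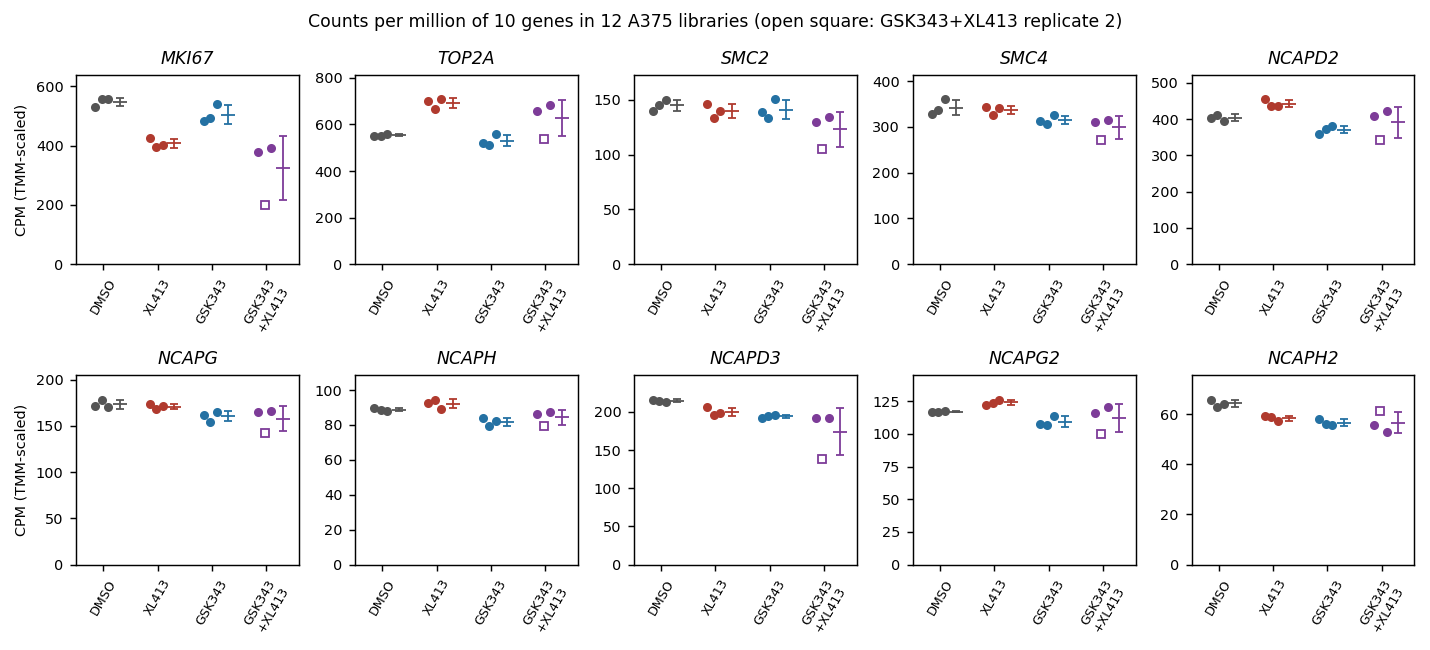
TMM-scaled CPM of the 10 genes, 1 panel each with its own axis from 0, in 12 libraries (points) of 4 groups with the group mean and SD beside them; the open square is replicate 2 of the combination. MKI67 lies at 395 to 425 CPM in XL413 and 531 to 556 CPM in DMSO, while TOP2A lies at 666 to 708 and 549.5 to 559.8 CPM.

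The ratio of MKI67 to TOP2A counts within a library does not depend on scaling between libraries. It was 0.961, 1.01 and 0.992 in DMSO and 0.922, 0.963 and 0.967 in GSK343. In XL413 it was 0.606, 0.594 and 0.567, and in the combination 0.576, 0.373 and 0.574. All 6 libraries with XL413 were thus far below all 6 without it. MKI67 was chosen for being lower with XL413 and the combination, so nothing is read from this separation. The geometric mean was 0.988 in DMSO, 0.950 in GSK343, 0.589 in XL413 and 0.498 in the combination. Over 11 libraries without replicate 2 of the combination, the log2 levels of MKI67 and TOP2A had a Pearson r of -0.83, against -0.19 over all 12, and these points share groups and are given as a description only.

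The 2 subunits shared by both condensins differed little with XL413. SMC4 was at 328, 336 and 360.2 CPM in DMSO and at 343, 327 and 342 CPM in XL413, and SMC2 was at 139.6, 146 and 149.6 CPM in DMSO and at 146, 134 and 140.1 CPM in XL413. Both pairs of groups overlapped. Their fitted differences were -0.02 ± 0.056 log2 for SMC4 and -0.05 ± 0.078 for SMC2.

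Among condensin I subunits, NCAPD2 was higher in every XL413 library. It had 403, 412 and 393 CPM in DMSO and 454, 436 and 437 CPM in XL413, a difference of +0.13 ± 0.063 log2. NCAPG, at 171, 178 and 170.2 CPM in DMSO and 173, 168 and 171 CPM in XL413, overlapped between the groups, as did NCAPH, at 88.2 to 89.6 and 89.3 to 94.5 CPM. Their differences were -0.02 ± 0.054 and +0.05 ± 0.045 log2.

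The condensin II subunits did not share a direction. NCAPG2 was higher in every XL413 library, at 122, 124 and 126 CPM against 116.6, 116.8 and 117.2 CPM in DMSO, or +0.09 ± 0.058 log2. NCAPD3 was lower in every XL413 library, at 207, 196 and 198 CPM against 216, 215 and 212 CPM, or -0.10 ± 0.091 log2. NCAPH2, the kleisin subunit of condensin II, was lower as well, at 59.1, 58.8 and 57.1 CPM against 65.8, 62.9 and 64.0 CPM, or -0.14 ± 0.051 log2.

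In XL413 against DMSO, 3 of the 10 genes (TOP2A, NCAPD2 and NCAPG2) were thus higher in all 3 libraries and 3 (MKI67, NCAPD3 and NCAPH2) were lower in all 3. Over all 15443 genes the shares were 11.9% and 16.2%, and nothing is read from these counts because the genes were chosen on this contrast. The median XL413 difference of the 10 genes was -0.02 log2 and that of all genes was -0.01. In the combination against DMSO, 0 were higher in all 3 libraries and 7 were lower in all 3, against 16.3% and 17.4% of all genes. With replicate 2 of the combination left out, 1 gene, TOP2A, was higher and 7 were lower, against 23.4% and 24.4% of all genes. Nothing is read from these counts either. The 7 in either count were MKI67, SMC2, SMC4, NCAPG, NCAPH, NCAPD3 and NCAPH2.

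The balance of condensin II against condensin I was taken within each library as the mean log2 count of NCAPD3, NCAPG2 and NCAPH2 minus that of NCAPD2, NCAPG and NCAPH. It was -0.65 ± 0.029 (SD, n = 3) in DMSO and -0.67 ± 0.014 in GSK343. In XL413 it was -0.75 ± 0.012, and in the combination -0.75 ± 0.021. All 6 libraries with XL413, between -0.77 and -0.73, were below all 6 without it, between -0.68 and -0.63. Replicate 2 of the combination did not stand apart in this measure. Taken on the summed counts of the subunits, it had the lowest value of the libraries, -0.912 log2, beside -0.894 in XL413 replicate 1.

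**Figure D3:**
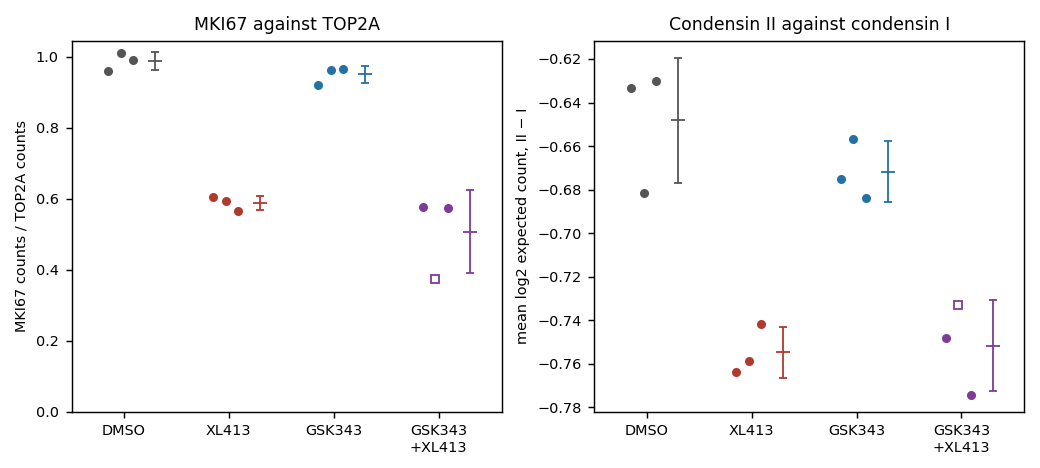
MKI67 counts divided by TOP2A counts (left, axis from 0) and mean log2 count of condensin II subunits minus condensin I subunits (right, axis not from 0) in 12 libraries, with group mean and SD; the open square is replicate 2 of the combination. XL413 and the combination lie below DMSO and GSK343 in both panels, at ratios of 0.373 to 0.606 against 0.922 to 1.01 on the left.

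Per kilobase of the longest annotated transcript, TOP2A was the most abundant of the 10 genes in DMSO, at 96.2 CPM per kb. NCAPD2 followed at 72.6 and SMC4 at 62.4 CPM per kb. MKI67, at 43.2, and NCAPD3, at 42.4, were close together, followed by NCAPG at 37.2, NCAPH2 at 30.9, NCAPH at 30.1, SMC2 at 24.2 and NCAPG2 at 22.2 CPM per kb. In XL413, TOP2A was at 120.1 CPM per kb and MKI67 at 32.1, below NCAPD3 at 39.6 and NCAPG at 36.7. On this scale the SMC4 level in DMSO was above that of SMC2, its partner in both complexes. The isoform measured is unknown, which can move each value per kb. SMC4, NCAPG, NCAPD2 and NCAPD3 overlap other annotated genes, and whether the counting used strand is not given in the sources used here. Expected counts that were not whole were seen for SMC4, NCAPG and NCAPH2, such as 2171.57 for NCAPH2 in DMSO replicate 1.

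With GSK343 alone, the fitted log2 differences of all 10 genes were below 0, and 0 of 10 passed the test at an adjusted p under 0.05 (edgeR quasi-likelihood test, Benjamini-Hochberg over 15443 genes). Over all genes, 1.17% were called in this comparison. At an unadjusted p under 0.05 there were 2 of the 10, NCAPH and NCAPH2, against 14.3% of all genes. DESeq2 also called 0. The differences ran from -0.18 to -0.04 log2 with a median of -0.12, while 49.6% of all genes were below 0. In 7 of the 10 genes every GSK343 library was below every DMSO library and in 0 every one was above, against 14% and 11.2% of all genes. The 7 were the condensin genes other than SMC2.

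The largest of these was NCAPH2, at 58.2, 55.9 and 55.7 CPM with GSK343. Its difference from DMSO was -0.18 ± 0.051 log2 (edgeR adjusted p = 0.109). NCAPD3, the condensin II HEAT-repeat subunit, was at 192, 195 and 196 CPM, all 3 below the lowest DMSO library at 212 CPM, with a difference of -0.14 ± 0.091 log2 (edgeR adjusted p = 0.531). NCAPD2, its counterpart in condensin I, was at 360.0, 373 and 379.9 CPM, or -0.12 ± 0.063 log2 (edgeR adjusted p = 0.421). MKI67 differed by -0.12 ± 0.17 log2 (edgeR adjusted p = 0.822) and TOP2A by -0.06 ± 0.070 log2 (edgeR adjusted p = 0.754), and both overlapped between the groups. The choice of MKI67 used these DMSO libraries, so its p-values here are not independent of that choice. Over fits that each left a library out, the MKI67 difference ran from -0.16 to -0.09 log2, with edgeR adjusted p between 0.108 and 0.921. That of TOP2A ran from -0.10 to -0.03 log2, with edgeR adjusted p between 0.345 and 0.923.

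In the fit, all 12 libraries share an estimate of the spread of each gene, so a library outside a comparison enters its SE. The number of genes called with GSK343 changed when such a library was left out. How much of the change came through the shared spread was not tested. Without replicate 2 of the combination, 3 of the 10 genes fell with GSK343, against 6.15% of 15584 genes called. NCAPH2 fell by 0.18 ± 0.035 log2 (edgeR adjusted p = 0.00818), NCAPD3 by 0.14 ± 0.027 (edgeR adjusted p = 0.00873) and NCAPD2 by 0.12 ± 0.030 (edgeR adjusted p = 0.0336). The sizes were as in the fit with all libraries, and the SE was smaller. With the GC and length correction as well, 9 of the 10 fell, all but SMC2, against 9.53% of all genes. This combination of settings was chosen after the data were seen. MKI67 is among the 9, and its choice used these DMSO libraries, so nothing is read from its call.

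**Figure D4:**
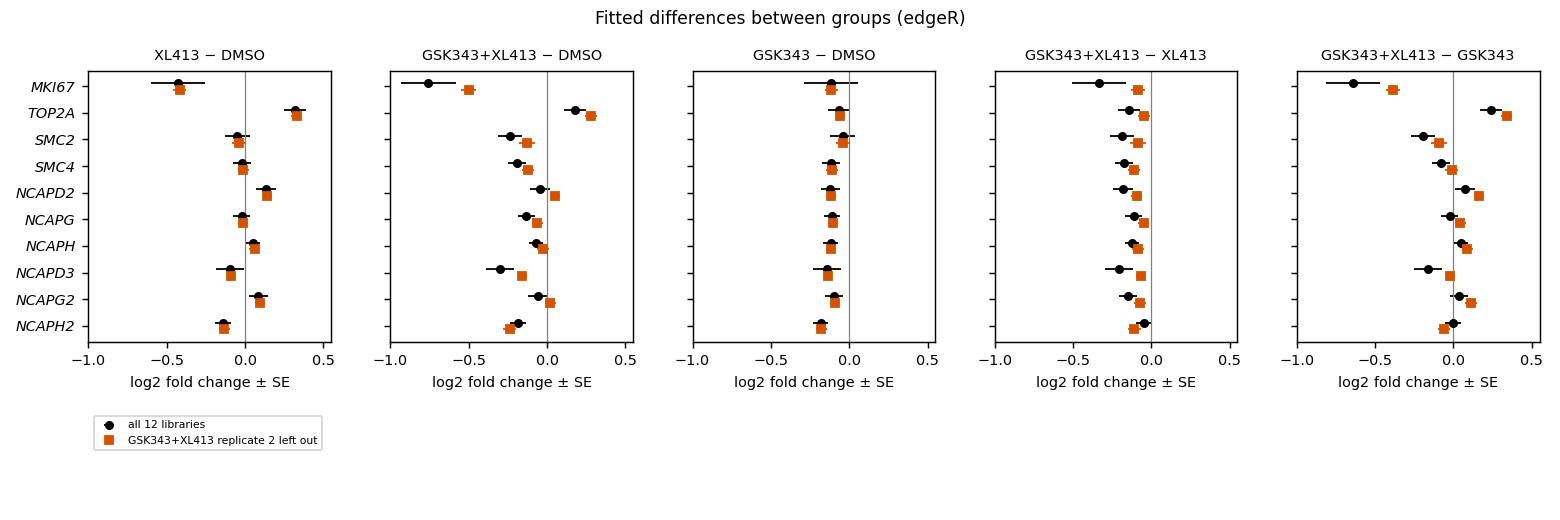
Fitted log2 fold change with SE for the 10 genes in 5 comparisons, with all 12 libraries (black circles) and without replicate 2 of the combination (orange squares). The 2 comparisons at left are descriptions; in GSK343 against DMSO all 10 points lie between -0.18 and -0.04, and in the 3 comparisons of the combination the squares lie to the right of the circles for all genes but NCAPH2.

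Adding GSK343 to XL413 gave differences below 0 in all 10 genes, from -0.33 to -0.04 log2 with a median of -0.16, while 47.9% of all genes were below 0. The test was given for 9 genes, since MKI67 was chosen on its levels in both groups. By edgeR, 0 of 9 passed, against 0.784% of all genes called. There were 6 of 9 at an unadjusted p under 0.05, against 15% of all genes, and DESeq2 called 0. SMC4, at 311, 270.5 and 315 CPM in the combination, was below every XL413 library and had the lowest adjusted p, with -0.17 ± 0.056 log2 (edgeR adjusted p = 0.188). MKI67, as a description, differed by -0.33 ± 0.17 log2, and by -0.08 ± 0.045 without replicate 2 of the combination. With that library left out, again 0 of 9 were called, against 1.62% of all genes, and the median of the 10 was -0.08 log2.

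Adding XL413 to GSK343 was tested for 9 genes, since MKI67 was chosen for its behaviour with XL413. By edgeR, 0 of 9 passed, against 0.984% of all genes called. There were 2 of 9 at an unadjusted p under 0.05, TOP2A and SMC2, against 20.4% of all genes. DESeq2 called 1, TOP2A, at +0.24 ± 0.075 log2 (DESeq2 adjusted p = 0.0367), whereas edgeR gave +0.24 ± 0.070 log2 (adjusted p = 0.107). When replicate 2 of the combination was left out, 2 of 9 rose, against 1.56% of all genes called. TOP2A rose by 0.34 ± 0.038 log2 (edgeR adjusted p = 0.00021) and NCAPD2 by 0.16 ± 0.033 log2 (edgeR adjusted p = 0.0212). NCAPG2 differed by +0.11 ± 0.037 log2 (edgeR adjusted p = 0.147), and the other 6 by -0.09 to +0.09. The MKI67 difference, given as a description, was -0.64 ± 0.17 log2 with all libraries and -0.39 ± 0.046 without that one.

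The interaction asks whether the GSK343 difference with XL413 present departs from that without XL413. In the edgeR test 0 of 9 members passed, in a comparison in which 0 of 15443 genes were called and 413 (2.67%) had an unadjusted p under 0.05. DESeq2 called 2 genes, neither a member. None of the 9 had an unadjusted p under 0.05 by edgeR. The values ran from -0.15 ± 0.11 log2 for SMC2 to +0.14 ± 0.072 for NCAPH2. Leaving that library out, they ran from -0.05 to +0.07 log2, with 0 of 15584 genes called. MKI67 had -0.21 ± 0.24 log2 with all libraries and +0.03 ± 0.061 without that library.

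**Figure D5:**
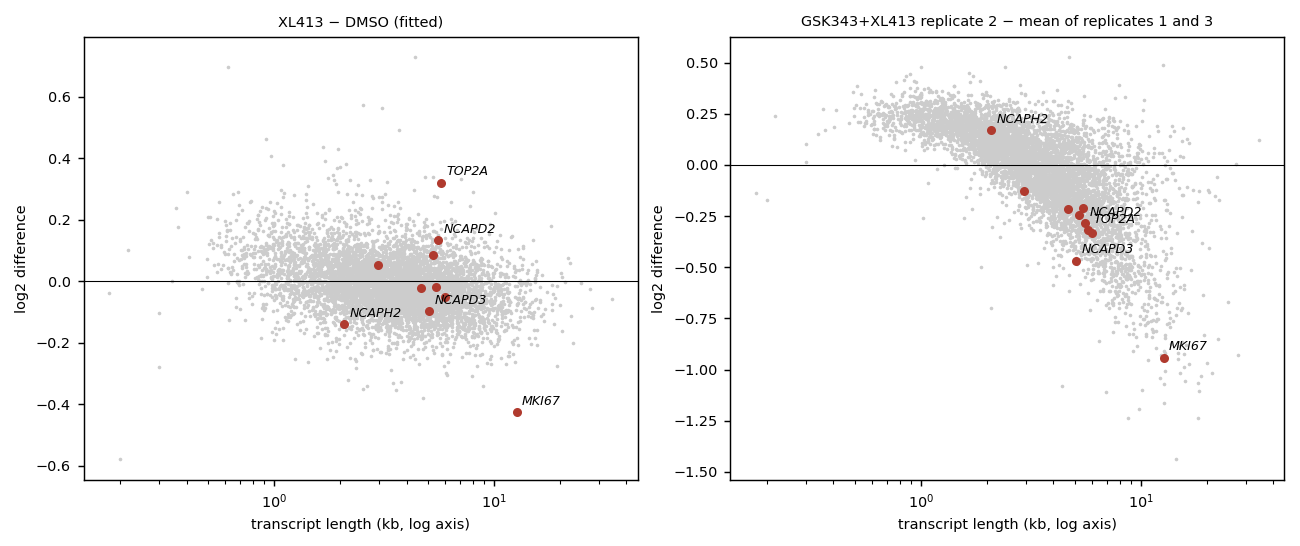
Log2 difference against transcript length (kb, log axis) for 6121 genes (grey) and the 10 members (red), between XL413 and DMSO (left) and between replicate 2 of the combination and the mean of replicates 1 and 3 (right). On the left MKI67, which was chosen for this fall, lies at -0.43, below other long transcripts. On the right it lies at -0.94, among long transcripts that were lower too.

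The genes most like MKI67 were ranked by Pearson r of log2 CPM among 6086 genes with a mean of at least 5 log2 CPM. Over 12 libraries they were KMT2D (r = 0.990), ZC3H13, RANBP2, NOM1, IRS1 and USP36 (r = 0.984). Their transcripts were 6063 to 19419 nt long. Without replicate 2 of the combination the first 6 were AXL (r = 0.986), CBX6, CCND1, C17orf51, AMOTL2 and KMT2D (r = 0.970). Only KMT2D, a histone H3 methyltransferase gene, stood in both lists. AXL, a receptor tyrosine kinase gene, ranked 1029th over 12 libraries, and its means were 478 CPM in DMSO, 430.3 in GSK343, 367 in XL413 and 342 in the combination. CCND1, which encodes cyclin D1, had means of 625, 595, 556 and 536 CPM in the same order. Of the other members, SMC2 had r = 0.68, NCAPD3 r = 0.63 and NCAPH2 r = 0.63 with MKI67 over 11 libraries. SMC4 had r = 0.31 and NCAPG r = 0.12, while NCAPD2 (r = -0.57), NCAPG2 (r = -0.49) and NCAPH (r = -0.36) were negative. With TOP2A, NCAPD2 had r = 0.88, NCAPG2 r = 0.85 and NCAPH r = 0.65 over these libraries.

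Related gene groups were counted in the same edgeR fit. These lists were chosen with earlier results of these data known, so their counts and p-values are given as descriptions. In XL413 against DMSO, where 0.427% of all genes were called, 0 of 13 cohesin genes, 0 of 5 tested SMC5/6 genes and 0 of 5 other topoisomerase genes were called, with medians of -0.06, -0.01 and -0.05 log2. Of 12 genes of the chromosome periphery and of condensation control, 2 rose. CDK1, the mitotic kinase, rose by 0.43 ± 0.046 log2 (edgeR adjusted p = 0.00175), from 105 ± 0.951 to 142 ± 5.54 CPM (SD, n = 3). KIF4A, the chromokinesin that works with condensin I, rose by 0.30 ± 0.056 log2 (edgeR adjusted p = 0.0386). Of 12 proliferation markers, 1 rose, AURKA, the spindle-pole kinase gene, by 0.21 ± 0.030 log2 (edgeR adjusted p = 0.00638). Of 12 regulators of G2/M promoters, 0 were called. TOP2B, the paralog of TOP2A expressed throughout the cell cycle, was at 166 ± 3.25 CPM in DMSO and 159.7 ± 2.69 in XL413, -0.05 ± 0.060 log2 (edgeR adjusted p = 0.747). With replicate 2 of the combination left out, 4.85% of all genes were called in this comparison, and 7 of the 12 proliferation markers rose and 1 fell. Of the 12 periphery and condensation genes 5 then rose and 1 fell. In the same fit 1 of 13 cohesin genes and 1 of 5 other topoisomerase genes fell. Of the 12 regulators of G2/M promoters 1 rose, and of the SMC5/6 genes 0 were called.

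With GSK343, where 1.17% of all genes were called, 4 of the 12 proliferation markers fell and 0 rose, with a median of -0.15 log2. They were MYBL2, a B-Myb transcription factor gene, by 0.21 ± 0.036 log2 (edgeR adjusted p = 0.0139), CDC20, which activates the anaphase-promoting complex, by 0.20 ± 0.038 (edgeR adjusted p = 0.0229), RRM2, a ribonucleotide reductase subunit, and AURKA. Among periphery and condensation genes 1 of 12 fell, PLK1, a mitotic kinase, by 0.19 ± 0.033 log2 (edgeR adjusted p = 0.0146). MYBL2 was also the 1 gene of 12 called among regulators of G2/M promoters, and it stands in both lists. The cohesin, SMC5/6 and other topoisomerase lists had 0 called of 13, 5 and 5. With replicate 2 of the combination left out, 7 of 12 proliferation markers fell with GSK343, as did 3 of 12 periphery and condensation genes, 4 of 12 regulators of G2/M promoters (1 rose) and 1 of 5 other topoisomerases. Over all genes 6.15% were called in that fit. When GSK343 was added to XL413, MYBL2 fell by 0.25 log2 (edgeR adjusted p = 0.00522) and PLK1 by 0.16 (edgeR adjusted p = 0.0396), and in each of those lists the other 11 genes were not called. Over all genes 0.784% were called. With replicate 2 of the combination left out, 4 of 12 proliferation markers fell in that comparison, against 1.62% of all genes called.

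When XL413 was added to GSK343, where 0.984% of all genes were called, 4 of 12 proliferation markers rose: CCNB1, BIRC5, AURKA and CDC20. CDK1 rose by 0.47 ± 0.046 log2 (edgeR adjusted p = 0.000939), and with BIRC5 and CCNB1 made 3 of 12 periphery and condensation genes. CCNB1, the cyclin partner of CDK1, rose by 0.19 ± 0.037 log2 (edgeR adjusted p = 0.0323). Of 13 cohesin genes 1 was called, SMC3, which fell by 0.31 ± 0.051 log2 (edgeR adjusted p = 0.0137). The medians were +0.20 log2 for the proliferation markers, +0.06 for the periphery and condensation genes and -0.08 for cohesin, beside -0.00245 for all genes. With replicate 2 of the combination left out, 7 of the proliferation markers and 4 of the periphery and condensation genes rose, and the cohesin median was +0.00086 log2. In that fit 1.56% of all genes were called. The lists share some genes and were chosen with earlier results of these data known, so their counts and p-values are descriptions of these libraries.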

How the data were processed

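The deposited values were RSEM expected counts per gene, which the authors made with RSEM 1.2.15 and Bowtie2 2.1.0 against hg38, per the submitters' processing notes; 10.5 to 11.1% of a library's values were not whole. The sources used here do not give the gene annotation or the strand setting of the counting. The members and lists were chosen with earlier results of these data known.

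Counts were rounded. In R 4.3.3, edgeR 4.0.16 fitted 1 coefficient per group to 12 libraries by quasi-likelihood, after filterByExpr (minimum count 10, minimum total 15) and TMM scaling, with 8 residual degrees of freedom and two-sided tests. The p-values were adjusted over 15443 genes, and a gene was called under 0.05; MKI67 was given no p in a comparison that adds either agent to the other, nor in the interaction. SE is the log2 fold change over the root of F. All 10 members are named, then the 6 genes most like MKI67 (log2 CPM with prior count 2), then from each list the called genes and at most the 3 most abundant. Transcript lengths, GC content and gene positions came from GENCODE 29 by symbol (23872 of 26473 names matched directly, 748 through RefSeq synonyms), promoters from RefSeq. Alternatives were RLE and upper quartile scaling, other filters, DESeq2 1.42.0, limma-voom (limma 3.58.1), only the groups compared, a replicate block, a GC and length correction (mgcv 1.9.3), each library left out and, added after the data were seen, 2 settings without replicate 2 of the combination. The scripts were tested on simulated data. No 2 libraries were identical. At 31553205 to 39079931 counts per library, the lowest count of a member was 1790, for which counting error alone is 2.36%.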

Additional observations from a re-analysis of the deposited data

How the results depend on the processing

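Members called were 0 in each of the 4 tested comparisons with all 12 libraries, and the values below are the settings that moved a count or a value. The share of all genes called under the same setting stands in parentheses. In GSK343 against DMSO the count was 2 with only the groups compared, NCAPD3 and NCAPH2 (2.64%), 1 with the GC and length correction, NCAPH2 (3.49%), 0 to 3 when each library was left out, 3 only without replicate 2 of the combination (6.15%), 2 with a replicate block and that library left out (4.68%), and 9 with the correction and that library left out (9.53%). In the combination against XL413, over 9 genes, it was 1, SMC4, with the correction (2.26%) and with the correction and a replicate block (1.42%), 2, SMC4 and NCAPD2, with the correction and that library left out (3.06%), and 0 whichever library was left out. In the combination against GSK343, over 9 genes, it was 1 with DESeq2 (3.74%), 2, TOP2A and NCAPD2, with the correction (4.02%) and with the correction and a block (2.71%), 0 to 2 over the libraries left out, 2 being without replicate 2 of the combination (1.56%), 1, TOP2A, with a replicate block and that library left out (0.982%), and 3, TOP2A, NCAPD2 and NCAPG2, with the correction and that library left out (4.4%). The interaction count was 0 in every setting run. The 2 settings with that library left out that add a block or the correction were chosen after the data were seen. MKI67 is among the 9 called with GSK343, and its choice used the DMSO libraries. The cause of these moves was not tested.

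The MKI67 difference between XL413 and DMSO was -0.38 log2 with the GC and length correction, -0.38 with the correction and a replicate block, -0.37 with the correction and that library left out, and -0.45 to -0.40 over the libraries left out. Between the combination and DMSO it was -0.92 to -0.50 over the libraries left out, the value nearest 0 being without replicate 2. No pairing by replicate number was seen. The 18 same-numbered pairs had correlations of deviations from group means of -0.504 to 0.561, 6 of them over 0.1. In 36 different-numbered pairs they were -0.604 to 0.532, 14 of them over 0.1, and 5 of 12 libraries correlated best with their own number. Deviations within a group depend on one another, so these values cannot exclude pairing. With a replicate block, 0 members were called in any comparison, MKI67 differed by -0.43 log2 with XL413, and 108 genes were called with GSK343 in place of 180. Upper quartile scaling moved the genes called with GSK343 from 112 higher and 68 lower to 136 and 31, and all 10 members stayed below 0. It moved those with XL413 from 43 and 23 to 43 and 14, and those of the combination against XL413 from 86 and 35 to 104 and 24, where RLE size factors gave 85 and 55. Genes called in XL413 against DMSO were 66 in the fit with all libraries, 249 with DESeq2, 1333 with only the groups compared, 563 with the correction and 16 to 756 over the libraries left out. In GSK343 against DMSO they were 180, then 342, 408, 539 and 37 to 958. In the combination against XL413 they were 121, then 292, 18, 349 and 40 to 252. In the combination against GSK343 they were 152, then 578, 0, 621 and 35 to 348. The summed form of the condensin II to I balance was -0.75, -0.88, -0.77 and -0.89 log2 in DMSO, XL413, GSK343 and the combination.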
